A study of Mus musculus with 19 samples.

Results

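Collagens are the main structural proteins of the extracellular matrix, and the genes followed here are the members of the mouse collagen family that were measurable in the ventricle. They were taken as all protein-coding genes with a symbol made of Col, digits, a and digits, and a mean of at least 0.1 CPM over the 19 libraries (counts per M, mega, of the library total times its TMM factor, a scaling factor for composition). Of 55536 genes in the files, 44 had such a symbol and 37 passed the level. They were 10 fibrillar, 6 basement membrane, 7 FACIT, 2 network, 4 type VI, 2 multiplexin and 3 transmembrane collagen genes, and 3 others. The lowest gene that passed was Col24a1 with a mean of 0.132 CPM, and the highest that did not were Col6a5 (0.0962 CPM) and Col19a1 (0.0887 CPM). Col17a1, Col2a1, Col10a1, Col6a4 and Col9a1 were lower still. At the same threshold on CPM without TMM factors, Col19a1 would have been a member, with 0.114 CPM.

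The libraries were rRNA-depleted total RNA from the ventricles of mice with an induced, heart-specific knockout of Mpc1, labelled MPC1 knockout (KO), and of mice labelled wild type (WT). Mpc1 encodes a subunit of the carrier that brings pyruvate into mitochondria. Tissue was taken 16 or 8 weeks after induction of the knockout. The groups were KO-16 (5 libraries), WT-16 (5), KO-8 (4) and WT-8 (5). The labels give no age, strain or driver of the recombinase, and do not state how animals map to libraries, so p-values cover only the spread among these libraries, which may be technical. The 16-week samples had 2 count files each, which were summed. The deletion is labelled heart-specific without naming a cell type, and most collagens of the heart are known to come from fibroblasts and vessel cells. In these bulk samples, fewer cells of a type and less RNA per cell cannot be told apart.

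Mpc1 had 15.1 ± 6.99 CPM in KO-16 and 69.6 ± 9.29 CPM in WT-16, and 10.8 ± 1.62 CPM in KO-8 and 74.3 ± 6.82 CPM in WT-8 (SD; n = 5, 5, 4 and 5). Library totals were 9.54 to 26.9 M counted read pairs in KO-16, 8.63 to 19.7 M in WT-16, 16.5 to 19.5 M in KO-8 and 17.4 to 27.5 M in WT-8. A gene annotated on 18S ribosomal RNA took 1.71% to 30.0% of the counts in KO-16 and 6.88% to 39.1% in WT-16, against at most 0.0666% in KO-8 and 0.000956% in WT-8. In CPM of the library total without TMM factors, Y-linked transcripts were at 157 in replicate 4 of KO-16 and 99.9 in replicate 5 of WT-16. They were at most 0.142 in the other libraries. The collagen genes themselves had 8029 to 108900 read pairs per library in KO-16, 2476 to 19371 in WT-16, 43941 to 52612 in KO-8 and 30709 to 51473 in WT-8. The 8-week samples had 1 count file each, with a date tag that neither 16-week file carries, so that time and processing date cannot be told apart, and levels were not tested between times.

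A collagen chain is a string of Gly-X-Y repeats, in which glycine lies at the centre of a helix wound from several chains. Fibrillar collagens have a long unbroken helix and assemble into banded fibres, which give the interstitium of the heart its tensile strength. Type IV collagens, with many interruptions of the helix, form the sheet-like basement membrane around each muscle cell and capillary. FACIT collagens (fibril-associated collagens with interrupted helices) sit on the surface of fibrils, network-forming collagens such as type VIII build hexagonal lattices around vessels, and type VI forms beaded filaments near the cell surface. In heart disease, activated fibroblasts are the main source of new fibrillar collagen.

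The fibrillar genes stood apart from the other types in the coding sequences of GENCODE M21 on GRCm38 by the length of their glycine repeat, counted as consecutive triplets of codons that start with a glycine codon (GG and any base). The longest uninterrupted run was 216 to 344 triplets in the 10 fibrillar genes, 39 to 66 in the 6 basement membrane genes, 32 to 113 in the 7 FACIT genes and 60 to 61 in the 2 network genes, so that the types other than the fibrillar one overlapped. Fibrillar genes had 2 or 3 runs of at least 10 triplets, and basement membrane genes 16 to 19. The following stretches of 81 coding bases are shown because they contrast the unbroken helix of a fibrillar gene with the ends of the longest run in a basement membrane, a network and a FACIT gene. Glycine codons in frame are in capitals, and position 1 is the first base of the start codon.
Col1a1, fibrillar, bases 502 to 582: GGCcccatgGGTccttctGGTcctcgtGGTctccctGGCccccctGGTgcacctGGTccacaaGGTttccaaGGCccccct
Col4a1, basement membrane, bases 4012 to 4092: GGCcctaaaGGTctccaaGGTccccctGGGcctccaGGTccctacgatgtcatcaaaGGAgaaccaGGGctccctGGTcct
Col8a1, network, bases 1558 to 1638: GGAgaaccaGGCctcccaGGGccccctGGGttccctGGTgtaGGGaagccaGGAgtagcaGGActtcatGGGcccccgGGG
Col12a1, FACIT, bases 8656 to 8736: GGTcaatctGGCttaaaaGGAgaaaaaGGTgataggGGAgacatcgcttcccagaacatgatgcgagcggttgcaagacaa
The Col1a1 stretch holds 9 glycine codons at an even spacing, and it opens a run of 338 triplets. In Col4a1 the repeat breaks and resumes after several codons. In Col8a1 it slips by a codon and goes on in a shifted register. In Col12a1 it breaks and does not resume within the stretch shown. Col12a1 has 4 runs of at least 10 triplets, which hold only 7.64% of its 3065 codons, against 73.3% of the 1453 codons of Col1a1.

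Collagen transcripts were higher in knockout hearts at both times, and no collagen gene passed edgeR's test in the other direction at either time. At 16 weeks, 15 of the 25 collagen genes that passed the filter on low counts rose in KO-16 relative to WT-16 (edgeR's quasi-likelihood test, adjusted p under 0.05 over all 12597 genes tested), where 1.88% of all genes rose, 0.945% fell and 2.83% were called in either direction. At 8 weeks, 17 of 31 tested rose in KO-8 relative to WT-8, against 4.30% of the 15173 genes tested (3.91% fell, and 8.21% were called in either direction). Of the 18 genes called at either time, 14 were called at both, Col12a1 at 16 weeks alone, and Col14a1, Col15a1 and Col18a1 at 8 weeks alone. Col12a1 passed the 16-week filter through its KO-16 levels, with 3038 read pairs in KO-16 and 100 in WT-16. Col16a1 also had few read pairs in WT-16, 84 against 848 in KO-16. The 16-week calls of both genes lean on the group where they were high. The median log2 fold change over the tested collagen genes was 1.07 at 16 weeks, against 0.0090 over all genes, and 0.52 at 8 weeks, against 0.0019 over all genes. The groups did not overlap in 7 of the 25 genes at 16 weeks and in 17 of the 31 at 8 weeks, with all KO libraries above all WT libraries in each of them, where 2.12% and 5.01% of all tested genes did so, and 2.56% and 5.85% had all KO libraries below all WT libraries.

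The 16-week count moved with the libraries in the fit. With 1 library left out at a time, between 1 and 18 collagen genes passed, while 19 to 22 of the 25 had an unadjusted p under 0.05 in each of these fits and the calls over all genes ranged from 29 to 1856. The counts fell below 10 without replicate 1, 2, 4 or 5 of WT-16 (2, 1, 1 and 3 genes) and without replicate 2, 3 or 4 of KO-16 (5, 2 and 2). All 15 genes stayed higher in KO-16 in each of these fits, but Col8a1 was the only one of them called in all 10. Without the 2 libraries with Y-linked transcripts no collagen gene passed edgeR's test, where 20 of 25 had an unadjusted p under 0.05. With all 16-week libraries and the log2 of the 18S share added to the model, 2 passed. The median log2 fold change of the collagen genes was 0.87 and 0.95 in these fits, and 10 and 35 of all genes were called. At 8 weeks, 15 to 17 collagen genes passed with 1 library left out, and 872 to 1163 of all genes. A joint fit of all 19 libraries, in which the wider spread of the 16-week libraries enters, called 1 collagen gene and 31 of all genes.

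**Figure D1:**
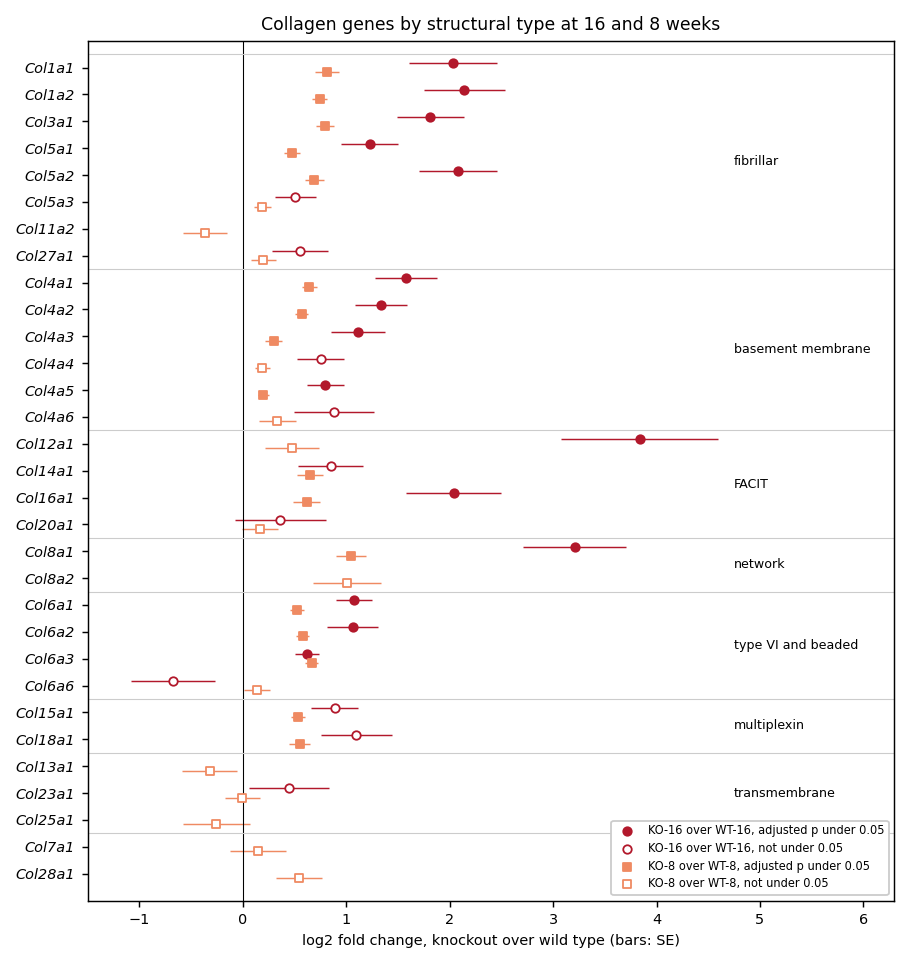
Log2 fold change of each tested collagen gene, KO over WT, at 16 weeks (circles) and at 8 weeks (squares), grouped by structural type; bars are standard errors and filled symbols have an adjusted p under 0.05. Genes with no circle did not pass the filter on low counts at 16 weeks; 23 of the 25 genes tested at both times lie farther right at 16 weeks than at 8 weeks.

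Among the fibrillar collagens, the genes of the main cardiac fibrils rose together: Col1a1, Col1a2, Col3a1, Col5a1 and Col5a2 were called at both times, 5 of 7 tested at 16 weeks and 5 of 8 at 8 weeks. Col3a1 (ENSMUSG00000026043, chromosome 1, 45311538 to 45349706, plus strand, GRCm38) encodes the chain of type III collagen, the reticular fibre of distensible tissues, and had the highest level per kilobase of the fibrillar genes. It had 162, 610.2, 508, 464 and 308 CPM in KO-16, against 113, 139, 148, 129 and 57.7 CPM in WT-16. All KO-16 libraries lay above all WT-16 libraries, and replicate 5 of WT-16 was the lowest. At 8 weeks it had 337, 379, 370.1 and 298 CPM in KO-8, against 170.4, 196, 204, 213 and 221 CPM in WT-8, again without overlap. Its log2 fold changes were 1.81 (adjusted p = 0.0188, SE 0.32) at 16 weeks and 0.79 (adjusted p = 0.000124, SE 0.09) at 8 weeks.

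Col1a1 (ENSMUSG00000001506, chromosome 11, 94936224 to 94953042, plus strand) and Col1a2 (ENSMUSG00000029661, chromosome 6, 4504814 to 4541544, plus strand) encode the chains of type I collagen, the stiff fibre of scar. Col1a1 had 14.2, 80.8, 109.98, 89.4 and 33.9 CPM in KO-16, against 14.7, 21.5, 15.6, 14.98 and 14.02 CPM in WT-16. KO-16 replicate 1 lay within the WT-16 range, and the other 4 KO-16 libraries lay above it. At 8 weeks the gene had 30.3, 44.7, 30.9 and 34.2 CPM in KO-8, against 16.6, 19.3, 21.1, 19.99 and 23.5 CPM in WT-8, with no overlap. The log2 fold changes of Col1a1 were 2.03 (adjusted p = 0.0308, SE 0.42) at 16 weeks and 0.81 (adjusted p = 0.000994, SE 0.12) at 8 weeks. Col1a2 had 38.6, 203, 218, 166 and 66.9 CPM in KO-16, against 29.1, 33.96, 40.6, 28.8 and 24.6 CPM in WT-16. Here too replicate 1 of KO-16 overlapped the WT-16 libraries. At 8 weeks Col1a2 had 75.4, 90.3, 87.7 and 76.9 CPM in KO-8, against 44.5, 51.1, 51.5, 49.4 and 51.99 CPM in WT-8. Its log2 fold changes were 2.14 (adjusted p = 0.0211, SE 0.39) and 0.74 (adjusted p = 4.46e-05, SE 0.07) at 16 and 8 weeks. The ratio of Col1a1 to Col1a2 reads was 0.463 ± 0.0754 in KO-16 and 0.523 ± 0.0918 in WT-16, and 0.424 ± 0.0606 in KO-8 and 0.404 ± 0.0317 in WT-8 (SD), so the 2 chains of type I kept overlapping ratios while both rose.

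Type V collagen is a minor partner that starts fibrils and limits their width. Col5a2 (ENSMUSG00000026042, chromosome 1, 45374321 to 45503282, minus strand) lies tail to tail with Col3a1, with 24614 bases between the gene ends. Col5a2 had 27.3, 150.4, 134, 106 and 53.6 CPM in KO-16, against 20.7, 26.02, 27.4, 21.3 and 15.6 CPM in WT-16. Replicate 1 of KO-16 stood just inside the top of the WT-16 range. At 8 weeks Col5a2 had 56.7, 52.9, 62.3 and 45.8 CPM in KO-8, against 28.7, 35.6, 37.05, 33.9 and 34.6 CPM in WT-8, and the groups did not overlap. The log2 fold changes were 2.08 (adjusted p = 0.0196, SE 0.37) at 16 weeks and 0.69 (adjusted p = 0.00052, SE 0.09) at 8 weeks. Col5a1, the chain that most type V molecules share, averaged 37.6 ± 15.6 CPM in KO-16 and 15.9 ± 3.84 CPM in WT-16, a log2 fold change of 1.23 (adjusted p = 0.0362, SE 0.28). At 8 weeks its log2 fold change was 0.48 (adjusted p = 0.00198, SE 0.08). Col5a3 was not called at either time: its log2 fold change was 0.51 (adjusted p = 0.137, SE 0.20) at 16 weeks and 0.19 (adjusted p = 0.185, SE 0.08) at 8 weeks. Its ratio to Col5a1 in reads was 0.544 ± 0.218 in KO-16 and 0.775 ± 0.0912 in WT-16, and 0.873 ± 0.109 in KO-8 and 1.07 ± 0.156 in WT-8.

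The remaining fibrillar genes had few read pairs for their length. Col27a1, a collagen of growing cartilage, had log2 fold changes of 0.56 (adjusted p = 0.213, SE 0.27) and 0.20 (adjusted p = 0.352, SE 0.12) at 16 and 8 weeks. Col11a2 was too low to be tested at 16 weeks and had -0.37 (adjusted p = 0.332, SE 0.21) at 8 weeks. Col11a1 and Col24a1 did not pass the filter at either time. Col11a1, best known from cartilage fibrils, was at 0.2103, 0.976, 2.28, 0.854 and 0.166 CPM in KO-16, against 0, 0, 0.04599, 0.333 and 0.2298 CPM in WT-16. Those are 83 read pairs in all of KO-16 and 4 in all of WT-16. With no filter on low counts its adjusted p was 0.0375. Replicate 3 of KO-16 was the highest, as it was for Col1a1. Of 6 markers of cartilage and valve cells, Matn3 and Ucma were at 0 in all KO-16 libraries. Acan averaged 0.906 CPM in KO-16 and 0.0453 CPM in WT-16, and 0.408 and 0.0196 CPM in KO-8 and WT-8. Sox9 averaged 4.26 CPM in KO-16 and 1.53 CPM in WT-16. Chad averaged 0.352 and 0.226 CPM in KO-16 and WT-16, and Hapln1 0.437 and 0.295 CPM. The 6 summed to 1.40 to 9.86 CPM in KO-16 and 1.08 to 3.22 CPM in WT-16. The part of such cells in these low levels was not tested.

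**Figure D2:**
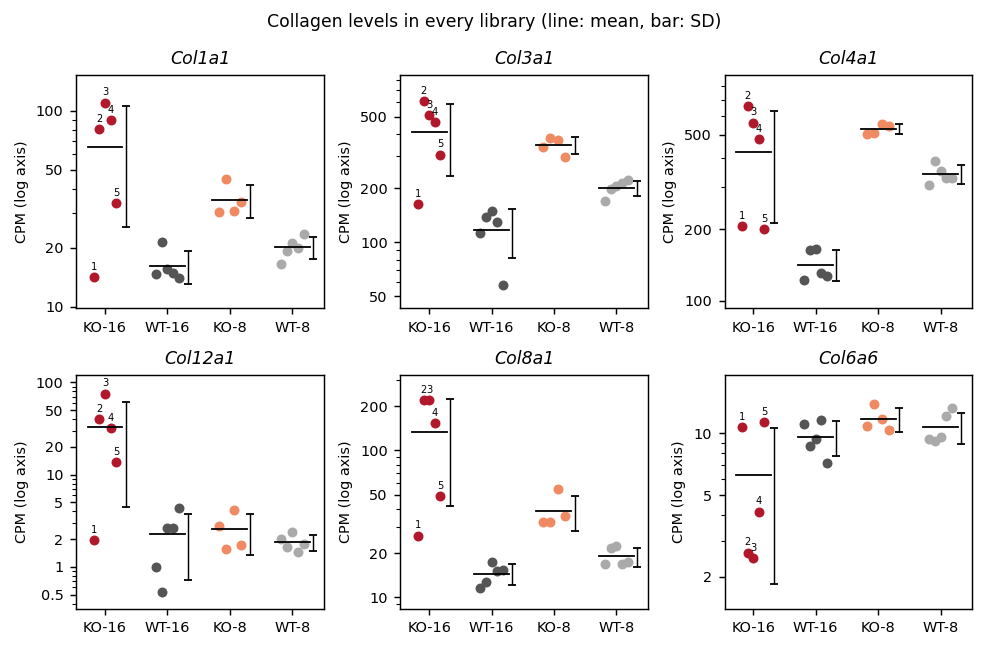
CPM (log axis) of 6 collagen genes in every library of KO-16, WT-16, KO-8 and WT-8; lines are group means, bars are SD, and the digits give the KO-16 replicate. In 5 of the panels KO-16 replicates 2, 3 and 4 lie above every WT-16 library, and in the panel of Col6a6 replicates 2, 3 and 4 lie below every WT-16 library.

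The basement membrane collagens include the 2 genes with the highest collagen levels per kilobase, and they had a median log2 fold change of 0.998 at 16 weeks, against 1.81 for the fibrillar genes (the difference between types was not tested). Col4a1 and Col4a2, whose chains make up the type IV network found in all basement membranes, were called at both times. Col4a1 (ENSMUSG00000031502, chromosome 8, 11198423 to 11312826, minus strand) had 206, 660.2, 563, 481 and 201 CPM in KO-16, against 123, 164, 165, 131 and 127 CPM in WT-16. All KO-16 libraries exceeded all WT-16 libraries, with replicates 1 and 5 far below the other 3. Its 8-week values were 507, 511, 557 and 545 CPM in KO-8, against 306, 389, 351, 329 and 331 CPM in WT-8. The log2 fold changes were 1.58 (adjusted p = 0.0257, SE 0.30) and 0.64 (adjusted p = 0.000124, SE 0.07) at 16 and 8 weeks. Col4a2 (ENSMUSG00000031503, chromosome 8, 11312805 to 11449287, plus strand) had 167, 421, 358, 364 and 161 CPM in KO-16, against 136, 112, 127, 108 and 102 CPM in WT-16. The same 3 libraries of KO-16 were the highest, and the groups did not overlap. The 8-week libraries had 292, 292, 308 and 343 CPM in KO-8, against 190.1, 224, 211, 210.2 and 211 CPM in WT-8, with log2 fold changes of 1.34 (adjusted p = 0.0239, SE 0.25) and 0.57 (adjusted p = 0.00015, SE 0.06) at 16 and 8 weeks.

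The 6 type IV genes lie in head-to-head pairs, so that each pair can be read against its partner. Col4a1 and Col4a2 share the 22 bases at chr8:11312805-11312826 at their starts. Col4a4 and Col4a3 start 71 bases apart, around chr1:82586850-82586920, and Col4a6 and Col4a5 are 1308 bases apart on chromosome X. The stretches of the closely spaced pairs are shown because each separates, or is shared by, both genes of a pair (RefSeq windows, GRCm38.p6, plus strand, with any GGGCGG or CCAAT of either strand in capitals).
Shared start of Col4a1 and Col4a2: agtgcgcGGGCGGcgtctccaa
Between the starts of Col4a4 and Col4a3: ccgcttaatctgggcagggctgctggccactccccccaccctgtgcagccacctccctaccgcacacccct
The ratio of Col4a1 to Col4a2 reads was 1.39 ± 0.170 in KO-16 and 1.22 ± 0.205 in WT-16, and 1.72 ± 0.0918 in KO-8 and 1.63 ± 0.0735 in WT-8. The ratio of Col4a4 to Col4a3 reads was 1.43 ± 0.182 in KO-16 and 1.80 ± 0.175 in WT-16, and 1.83 ± 0.0310 in KO-8 and 1.98 ± 0.112 in WT-8. Within these pairs, then, the ratios of the knockout and wild-type libraries overlapped at each time.

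The chains of the specialised type IV networks, best known from the kidney glomerulus, the eye and the ear, were lower per kilobase. Col4a5 (ENSMUSG00000031274, chromosome X, 141475385 to 141689234, plus strand) had 25.1, 43.4, 40.01, 33.9 and 28.2 CPM in KO-16, against 19.2, 19.1, 24.2, 21.6 and 13.8 CPM in WT-16. At the earlier time it had 43.8, 41.2, 47.04 and 41.7 CPM in KO-8, against 37.6, 37.9, 37.9, 38.5 and 38.6 CPM in WT-8. The groups did not overlap at either time, though the difference at 8 weeks was small, and the log2 fold changes were 0.80 (adjusted p = 0.0358, SE 0.18) and 0.20 (adjusted p = 0.0336, SE 0.05) at 16 and 8 weeks. Col4a3 averaged 11.2 ± 3.78 CPM in KO-16 and 5.104 ± 0.743 CPM in WT-16, and its log2 fold changes were 1.11 (adjusted p = 0.042, SE 0.26) and 0.30 (adjusted p = 0.0399, SE 0.08). The 8-week calls of Col4a3 and Col4a5 were the weakest of the 17: they held in 2 and 3 of the 9 fits without 1 library. Col4a4 was not called, with 0.75 (adjusted p = 0.0788, SE 0.23) and 0.19 (adjusted p = 0.131, SE 0.07), and neither was Col4a6, with 0.88 (adjusted p = 0.176, SE 0.39) and 0.33 (adjusted p = 0.277, SE 0.18). Per read of Col4a1, Col4a5 had 0.0940 ± 0.0348 reads in KO-16 and 0.139 ± 0.0248 in WT-16, and 0.0820 ± 0.00446 in KO-8 and 0.112 ± 0.00998 in WT-8. At 8 weeks all KO libraries had a lower ratio than all WT libraries.

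Among the FACIT collagens, Col12a1 had the largest log2 fold change of the tested collagen genes at 16 weeks, and it was not called at 8 weeks. Its long product bridges fibrils in tissues under mechanical load. Col12a1 (ENSMUSG00000032332, chromosome 9, 79598991 to 79718831, minus strand) had 1.96, 40.2, 75.3, 31.96 and 13.8 CPM in KO-16, against 1.01, 0.542, 2.67, 2.66 and 4.37 CPM in WT-16. The KO-16 libraries spanned 1.96 to 75.3 CPM: replicate 1 lay within the WT-16 range and the other 4 lay above it. At 8 weeks the gene had 2.79, 1.55, 4.16 and 1.72 CPM in KO-8, against 1.99, 1.63, 2.397, 1.44 and 1.76 CPM in WT-8, and these ranges overlapped. The log2 fold changes were 3.84 (adjusted p = 0.0278, SE 0.76) and 0.47 (adjusted p = 0.298, SE 0.26) at 16 and 8 weeks. The change between times was 3.36 on the log2 scale (SE 0.92), with an adjusted p of 0.271. Col12a1 passed the 16-week filter on low counts through its KO-16 levels, with 3038 read pairs in KO-16 and 100 in WT-16. Its 16-week p is therefore no support beyond those levels. With no filter, Col22a1 (4.24) and Col8a2 (4.03) had larger 16-week log2 fold changes than Col12a1 (3.85).

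Col16a1 and Col14a1 are FACIT collagens of the dermis, tendon and heart interstitium. Col16a1 (ENSMUSG00000040690, chromosome 4, 130047840 to 130099283, plus strand) had 3.44, 15.1, 11.2, 7.56 and 2.16 CPM in KO-16, against 1.77, 2.35, 2.07, 1.83 and 1.84 CPM in WT-16. Replicate 5 of KO-16 was its lowest, below the highest WT-16 library. After 8 weeks the values were 9.41, 8.72, 10.6 and 6.68 CPM in KO-8, against 5.004, 6.57, 5.97, 6.53 and 5.16 CPM in WT-8, without overlap, and the log2 fold changes were 2.04 (adjusted p = 0.0359, SE 0.46) and 0.62 (adjusted p = 0.0104, SE 0.13). The WT-16 libraries held 84 read pairs of Col16a1 in all, fewer than the 100 of Col12a1, against 848 in KO-16. Its 16-week test thus also leans on the KO-16 level. Col14a1 (ENSMUSG00000022371, chromosome 15, 55307750 to 55520803, plus strand), the FACIT gene with the highest level per kilobase, had 29.1, 53.5, 74.7, 30.6 and 40.02 CPM in KO-16, against 29.6, 27.8, 33.4, 26.5 and 8.73 CPM in WT-16. Its KO-16 and WT-16 libraries overlapped, and replicate 5 of WT-16 was far below the others. At 8 weeks Col14a1 had 29.96, 31.3, 49.6 and 31.2 CPM in KO-8, against 21.7, 21.6, 22.7, 23.5 and 24.5 CPM in WT-8. It was called at 8 weeks and not at 16, with log2 fold changes of 0.85 (adjusted p = 0.121, SE 0.31) at 16 weeks and 0.65 (adjusted p = 0.00657, SE 0.13) at 8 weeks.

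Col22a1, a FACIT of tissue junctions, did not pass the filter in the 16-week or the 8-week fit, and is described here because of its values. It had 0.2804, 3.09, 6.904, 3.29 and 1.33 CPM in KO-16, against 0, 0, 0.276, 0.166 and 0 CPM in WT-16. All KO-16 libraries lay above all WT-16 libraries, on 262 read pairs in KO-16 and 7 in WT-16. At 8 weeks it had 0.301, 0.285, 0.294 and 0.336 CPM in KO-8, against 0.257, 0.502, 0.436, 0.2003 and 0.363 CPM in WT-8, and the groups overlapped. With no filter on low counts its log2 fold change was 4.24 at 16 weeks (adjusted p = 0.000817, SE 0.73) and -0.18 at 8 weeks (adjusted p = 0.856, SE 0.38). Col20a1 was not called, with 0.36 (adjusted p = 0.624, SE 0.44) and 0.17 (adjusted p = 0.636, SE 0.18). The chains of type IX collagen, a cartilage FACIT, were near the limit of measurement: Col9a2 had 107 read pairs in KO-16, 3 in WT-16, 22 in KO-8 and 9 in WT-8, and Col9a3 had 13, 9, 16 and 27. Of the Col9a2 read pairs in KO-16, replicate 2 gave the highest level, 2.23 CPM, and replicate 1 gave none.

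Col8a1, the network-forming chain of vessel walls and valves, had the smallest adjusted p of the tested collagen genes at 16 weeks and the largest log2 fold change of the tested collagens at 8 weeks. Col8a1 (ENSMUSG00000068196, chromosome 16, 57624258 to 57754737, minus strand) had 26.4, 219, 221, 153 and 49.1 CPM in KO-16, against 11.6, 12.6, 17.4, 15.1 and 15.4 CPM in WT-16. The groups did not overlap, and replicates 2, 3 and 4 of KO-16 were at least 3 times as high as replicates 1 and 5. Its 8-week values were 32.6, 32.8, 54.4 and 35.7 CPM in KO-8, against 16.8, 21.8, 22.3, 16.8 and 17.3 CPM in WT-8, again without overlap, with replicate 3 of KO-8 the highest. The log2 fold changes were 3.21 (adjusted p = 0.0103, SE 0.50) and 1.05 (adjusted p = 0.000829, SE 0.15) at 16 and 8 weeks. Over the fits without 1 library the 16-week value was 2.95 to 3.47, with an adjusted p of 0.000128 to 0.0470.

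The promoter window of Col8a1 is shown as that of the gene whose call at 16 weeks held in all fits without 1 library (RefSeq, GRCm38.p6, chr16:57754688-57754987, minus strand, 250 bases before the start to 50 after it, with each GGGCGG of either strand in capitals).
Col8a1 promoter: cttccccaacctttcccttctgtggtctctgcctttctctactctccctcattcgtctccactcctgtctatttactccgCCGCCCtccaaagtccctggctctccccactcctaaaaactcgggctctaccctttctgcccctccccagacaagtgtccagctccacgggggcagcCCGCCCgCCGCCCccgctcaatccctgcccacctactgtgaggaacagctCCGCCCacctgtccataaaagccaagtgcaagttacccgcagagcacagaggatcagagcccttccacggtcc
It holds 4 matches to this motif, which is known from sites of Sp1-type factors, and no CCAAT. RefSeq windows were matched for 29 of the 37 collagen genes. At least 1 GGGCGG on either strand was present in 20 of these 29, against 38.2% of all genes with a window, and CCAAT in 10 of 29, against 41.1%. CAGACA, which contains the core of the SMAD binding element, was present in 9 of 29, against 23.6%, and TATAAA in 3 of 29, against 15.7%. None of the 4 motifs is part of another, and these are matches of letters only.

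Col8a2, whose product joins that of Col8a1 in type VIII collagen, was lower per kilobase and was not tested at 16 weeks. It had 0.351, 5.07, 7.34, 0.976 and 0.498 CPM in KO-16, against 0, 0, 0.276, 0.333 and 0 CPM in WT-16. All KO-16 libraries exceeded all WT-16 libraries, 317 read pairs against 8, and replicates 2 and 3 carried most of them. The 8-week libraries had 0.989, 0.733, 1.72 and 0.522 CPM in KO-8, against 0.385, 0.4604, 0.523, 0.681 and 0.4404 CPM in WT-8. It was not called there, with a log2 fold change of 1.006 (adjusted p = 0.0749, SE 0.32). With no filter on low counts Col8a2 passed at both times, with log2 fold changes of 4.03 (adjusted p = 0.00307, SE 0.79) and 0.9985 (adjusted p = 0.0156, SE 0.28) at 16 and 8 weeks. Per read of Col8a1 there were 0.0172 ± 0.0109 reads of Col8a2 in KO-16 and 0.00757 ± 0.0106 in WT-16, and 0.0248 ± 0.00789 in KO-8 and 0.0267 ± 0.00786 in WT-8.

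The type VI genes Col6a1, Col6a2 and Col6a3 encode the chains of the common type VI molecule, and all 3 rose at both times. Col6a1 (ENSMUSG00000001119, chromosome 10, 76708792 to 76726168, minus strand) had 60.01, 119, 117, 108 and 80.03 CPM in KO-16, against 50.1, 45.5, 51.4, 44.9 and 39.3 CPM in WT-16. At the earlier time it had 96.1, 93.6, 113 and 98.7 CPM in KO-8, against 64.3, 69.98, 71.3, 72.9 and 73.9 CPM in WT-8. The groups did not overlap at either time, and the log2 fold changes were 1.07 (adjusted p = 0.0138, SE 0.18) and 0.52 (adjusted p = 0.000375, SE 0.07). Col6a3 (ENSMUSG00000048126, chromosome 1, 90765923 to 90843971, minus strand) had 61.1, 70.7, 79.7, 79.4 and 78.2 CPM in KO-16, against 48.3, 45.9, 51.1, 54.8 and 40.2 CPM in WT-16. In contrast to most other members, its KO-16 libraries differed little among themselves. After 8 weeks the values were 88.02, 96.7, 97.4 and 90.9 CPM in KO-8, against 52.4, 56.9, 61.1, 61.9 and 63.96 CPM in WT-8, with log2 fold changes of 0.62 (adjusted p = 0.0232, SE 0.12) and 0.66 (adjusted p = 5.54e-05, SE 0.07). It was 1 of 2 collagen genes whose difference was not larger at 16 than at 8 weeks. Col6a2 averaged 76.3 ± 28.7 CPM in KO-16 and 36.7 ± 7.62 CPM in WT-16, with log2 fold changes of 1.06 (adjusted p = 0.0417, SE 0.25) and 0.58 (adjusted p = 0.000125, SE 0.06). The read ratio of Col6a3 to Col6a1 was 0.800 ± 0.188 in KO-16 and 1.04 ± 0.101 in WT-16, and 0.933 ± 0.0723 in KO-8 and 0.840 ± 0.0244 in WT-8.

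Col6a6, an alternative chain of type VI collagen, was the only tested collagen gene with a negative log2 fold change at 16 weeks, and it is described because of its values. It had 10.7, 2.62, 2.47, 4.15 and 11.3 CPM in KO-16, against 11.1, 8.67, 9.43, 11.7 and 7.13 CPM in WT-16. Replicates 1 and 5 of KO-16 lay within the WT-16 range, and replicates 2, 3 and 4 lay below every WT-16 library, so the KO-16 libraries with the most of the other collagens had the least Col6a6. At 8 weeks it had 10.9, 13.9, 11.8 and 10.4 CPM in KO-8, against 9.398, 9.21, 9.59, 12.1 and 13.2 CPM in WT-8. It was not called by edgeR at either time, with log2 fold changes of -0.67 (adjusted p = 0.308, SE 0.40) and 0.14 (adjusted p = 0.557, SE 0.12), while limma-voom with quality weights called it lower at 16 weeks.

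The multiplexins Col15a1 and Col18a1, basement membrane collagens that carry sugar chains and release the endostatin-type fragments, were called at 8 weeks and not at 16. Col15a1 (ENSMUSG00000028339, chromosome 4, 47208161 to 47313167, plus strand) had 58.1, 115, 121, 118 and 67.2 CPM in KO-16, against 58.1, 51.1, 59.2, 58.9 and 32.2 CPM in WT-16. Replicate 1 of KO-16 was within the WT-16 range. Its 8-week values were 83.4, 92.02, 105 and 102 CPM in KO-8, against 62.9, 67.3, 70.7, 67.5 and 63.8 CPM in WT-8, without overlap. Its log2 fold changes were 0.89 (adjusted p = 0.0518, SE 0.23) at 16 weeks, just above the threshold of 0.05, and 0.54 (adjusted p = 0.000466, SE 0.07) at 8 weeks. Col18a1 averaged 8.73 ± 3.75 CPM in KO-16 and 4.03 ± 1.65 CPM in WT-16, with 1.097 (adjusted p = 0.0822, SE 0.34) at 16 weeks and 0.55 (adjusted p = 0.00532, SE 0.10) at 8 weeks.

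None of the transmembrane or other collagens was called. Col23a1, the transmembrane gene with the highest level per kilobase in KO-16, KO-8 and WT-8 but not in WT-16, had 1.05, 1.11, 1.36, 1.59 and 1.83 CPM in KO-16, against 0.758, 0.181, 1.33, 1.498 and 0.6895 CPM in WT-16. The 8-week libraries had 1.81, 1.55, 1.85 and 1.31 CPM in KO-8, against 1.57, 1.72, 1.79, 1.92 and 1.295 CPM in WT-8. Its log2 fold changes were 0.45 (adjusted p = 0.479, SE 0.39) and -0.01 (adjusted p = 0.988, SE 0.17). Col13a1 and Col25a1, of cell junctions and neurons, had -0.32 (adjusted p = 0.516, SE 0.26) and -0.26 (adjusted p = 0.693, SE 0.32) at 8 weeks and were not tested at 16. Col28a1, a collagen described around peripheral nerve, had 0.771, 1.28, 0.493, 2.32 and 2.66 CPM in KO-16, against 0.253, 0.542, 0.6899, 0.499 and 1.15 CPM in WT-16. At the earlier time it had 1.68, 1.0998, 2.102 and 1.42 CPM in KO-8, against 0.802, 1.05, 1.09, 0.962 and 1.45 CPM in WT-8, a log2 fold change of 0.54 (adjusted p = 0.155, SE 0.22). Col7a1, the anchoring fibril of skin, had 0.15 (adjusted p = 0.803, SE 0.27) at 8 weeks, and Col26a1 averaged 0.379 ± 0.448 CPM in KO-16 and 0.06896 ± 0.1102 CPM in WT-16 and passed the filter at neither time.

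Over the 37 genes together, collagen transcripts summed to 2142 ± 923.65 CPM in KO-16 and 759 ± 119 CPM in WT-16, and to 1989 ± 94.6 CPM in KO-8 and 1304 ± 78.0 CPM in WT-8. KO-16 ranged over 999 to 3035 CPM and WT-16 over 569 to 891 CPM, so that the sums did not overlap at 16 weeks, nor did those of KO-8 and WT-8 (1889 to 2116 CPM and 1169 to 1367 CPM). As a share of all counted read pairs they were 0.219% ± 0.144 in KO-16 and 0.0509% ± 0.0281 in WT-16, and 0.281% ± 0.0221 in KO-8 and 0.177% ± 0.0126 in WT-8. With rRNA and mitochondrial genes left out of the total, they were 0.392% in KO-16, 0.128% in WT-16, 0.365% in KO-8 and 0.236% in WT-8.

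**Figure D3:**
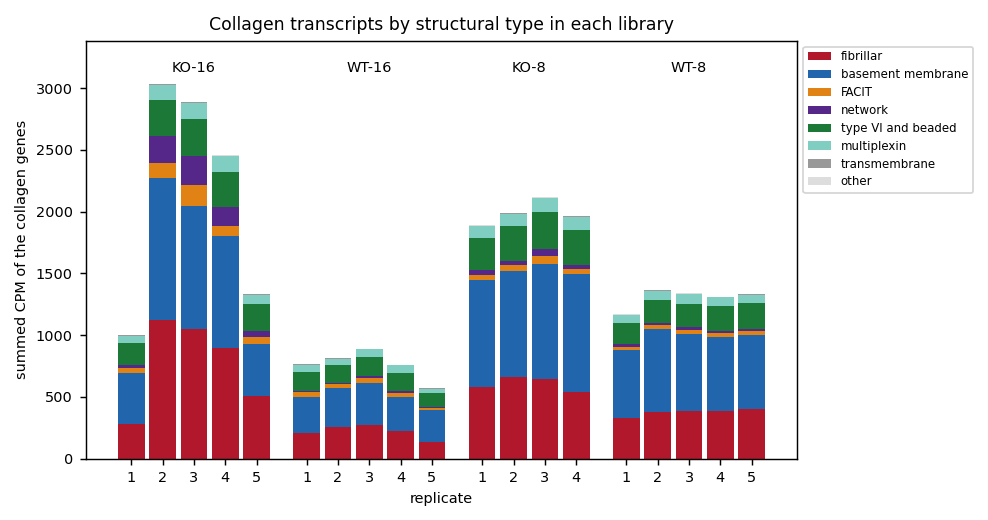
Summed CPM of the 37 collagen genes in each library, stacked by structural type, for KO-16, WT-16, KO-8 and WT-8. KO-16 replicates 2, 3 and 4 reach 2458 to 3035 CPM, and the WT-16 libraries 569 to 891 CPM.

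The mean make-up of the sum differed between the groups at 16 weeks, while the KO-16 and WT-16 ranges overlapped for every type. Fibrillar genes gave 35.2% ± 3.90 of the collagen CPM in KO-16 and 28.6% ± 3.04 in WT-16, and 30.5% ± 2.28 in KO-8 and 28.8% ± 1.13 in WT-8. Basement membrane genes gave 36.5% ± 3.68 in KO-16 and 39.1% ± 3.16 in WT-16, and 45.5% ± 2.22 in KO-8 and 46.6% ± 1.63 in WT-8. Network genes, almost all of it Col8a1, gave 5.59% ± 2.30 in KO-16 and 1.96% ± 0.479 in WT-16, and 1.99% ± 0.446 in KO-8 and 1.49% ± 0.170 in WT-8. Fibrillar and network shares were thus higher on average in KO-16 than in WT-16, with overlapping ranges in both types. Type VI genes gave 13.1% ± 3.59 in KO-16 and 18.6% ± 1.08 in WT-16, and 14.1% ± 0.0250 in KO-8 and 14.6% ± 0.683 in WT-8. FACIT genes gave 4.18% ± 1.08 in KO-16 and 3.99% ± 0.713 in WT-16, and 2.45% ± 0.482 in KO-8 and 2.48% ± 0.104 in WT-8. These shares are a description by library and were not tested, and CPM are not per length, so long genes weigh more.

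Per kilobase of exons, genes can be compared with each other only roughly, since the lengths are those of all annotated exons. Col1a2 has 12426 such bases for 1372 codons, and Col1a1 6563 bases for 1453 codons. Col4a1 and Col4a2 had the highest collagen levels in KO-16, with 56.6 ± 28.1 and 44.4 ± 18.3 CPM per kb, and Col3a1 the third with 41.8 ± 17.97. In WT-16 the same 3 genes led, with 19.03 ± 2.81, 17.7 ± 2.14 and 11.96 ± 3.65 CPM per kb. Col8a1 stood in rank 5 in KO-16 with 17.1 ± 11.8 CPM per kb, and in rank 14 in WT-16 with 1.84 ± 0.294. At 8 weeks it ranked 15 in KO-8 with 4.96 ± 1.33 and 15 in WT-8 with 2.43 ± 0.356. Col1a1, with 10.004 ± 6.11 CPM per kb in KO-16 and 2.46 ± 0.463 in WT-16, and Col1a2, with 11.2 ± 6.53 and 2.53 ± 0.493, were well below Col3a1 in all groups.

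**Figure D4:**
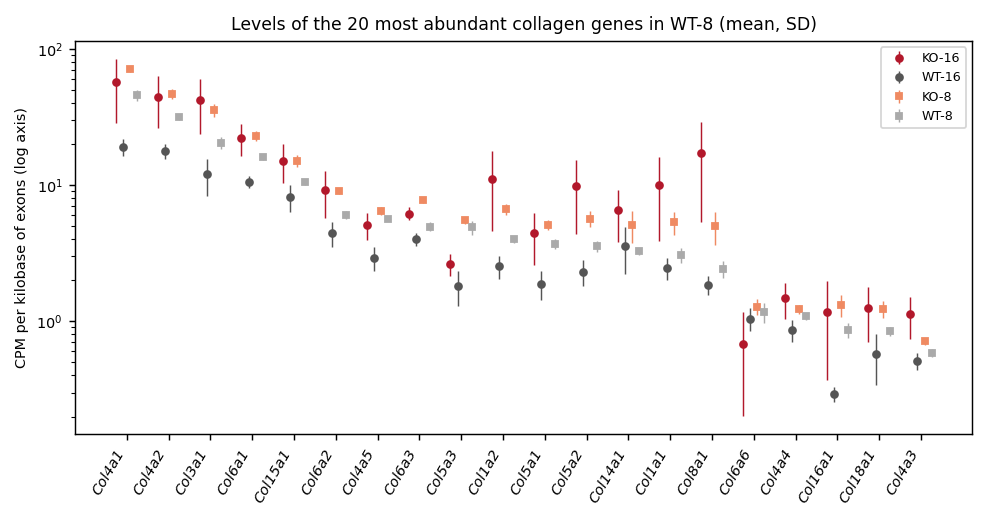
Mean CPM per kilobase of exons (log axis, bars SD) of the 20 collagen genes that were highest in WT-8, in KO-16, WT-16, KO-8 and WT-8. Col4a1 leads in every group, with 56.6 CPM per kb in KO-16 and 19.03 in WT-16, and Col8a1 shows the widest gap between KO-16 and WT-16.

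The KO-16 libraries differed among themselves far more than those of KO-8. Over the 18 genes called at either time, the median log2 ratio to the WT-16 mean was 0.32 in replicate 1, 1.72 in replicate 2, 1.67 in replicate 3, 1.63 in replicate 4 and 0.69 in replicate 5. In the 4 KO-8 libraries the median log2 ratio to the WT-8 mean lay between 0.56 and 0.69. Replicate 1 had the lowest level of the KO-16 libraries for 18 of the 25 genes tested at 16 weeks, and replicates 2 and 3 had the highest for 8 and 13. Of the 15 genes called, replicate 1 lay above every WT-16 library in 8, replicate 5 in 13, and replicates 2, 3 and 4 in all 15. Mpc1 was at 26.2, 9.03, 9.25, 15.1 and 15.9 CPM in KO-16 replicates 1 to 5, and its part in the spread of the collagen genes was not tested. The 18S share was 12.7%, 1.71%, 5.66%, 30.0% and 26.1% in KO-16 replicates 1 to 5, and 39.1%, 25.2%, 6.88%, 23.2% and 29.7% in WT-16 replicates 1 to 5. The library with the lowest 18S share of its group had the highest collagen sum in KO-16 (replicate 2, 3035 CPM) and in WT-16 (replicate 3, 891 CPM), while KO-16 replicate 4, with the highest share, had 2458 CPM. The part of the 18S share in the differences beyond the fit with it as a covariate was not tested.

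**Figure D5:**
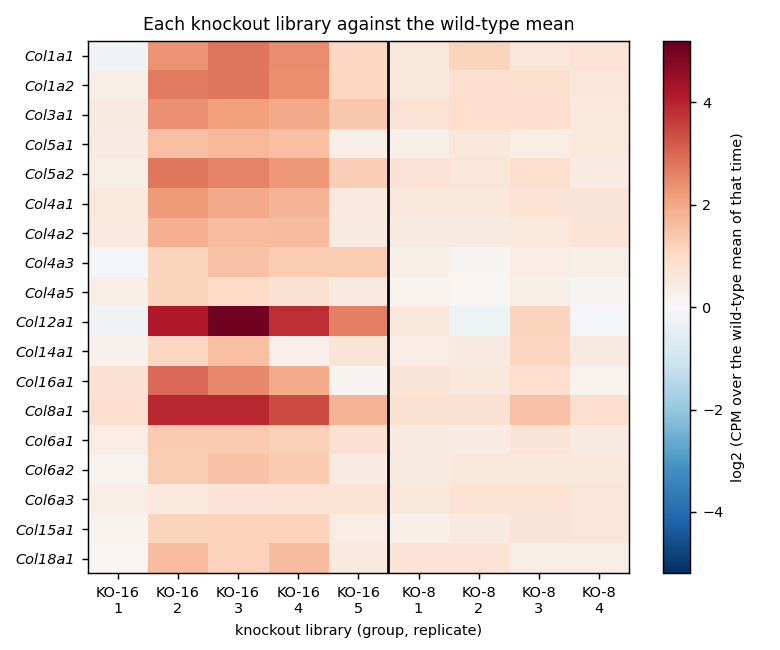
Log2 ratio of the CPM in each KO library to the mean of the WT libraries of the same time, for the 18 collagen genes called at either time, by structural type. KO-16 replicates 2, 3 and 4 have medians of 1.63 to 1.72, replicate 1 has 0.32, and the 4 KO-8 libraries have 0.56 to 0.69.

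Whether the knockout difference itself changed between the times was asked with an interaction term over all 19 libraries. The point estimate was larger at 16 than at 8 weeks for 23 of the 25 collagen genes tested at both times, all but Col6a3 and Col6a6. None of 32 collagen genes passed the adjusted threshold (edgeR; 16 had an unadjusted p under 0.05), and neither did any other of the 15503 genes tested, so that 0% of the genes were called. Col22a1 entered this fit through its KO-16 level alone, so its value there is not given. Among the genes tested at both times, the smallest unadjusted values were those of Col8a1 (0.00106) and Col12a1 (0.00147). The change in the log2 fold change was 2.16 (SE 0.57) for Col8a1, against -0.04 (SE 0.13) for Col6a3. DESeq2 called 1 collagen gene (30 of all genes), limma-voom 0 (0), voom with quality weights 9 (527), of which 8 were higher and 1 lower, and edgeR without replicate 1 of KO-16 called 14 (613).

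Collagen chains are hydroxylated and folded in the endoplasmic reticulum before they leave the cell. Of 15 tested genes for folding and modification, none passed at 16 weeks and 2 rose at 8 weeks, P3h1, a prolyl 3-hydroxylase, and Serpinh1, the collagen chaperone HSP47. Over all genes tested, 1.88% rose at 16 weeks and 4.30% at 8 weeks. The median log2 fold change of the list was 0.50 at 16 weeks and 0.16 at 8 weeks. Serpinh1 averaged 117 ± 43.4 CPM in KO-16 and 63.0 ± 11.6 CPM in WT-16, with log2 fold changes of 0.90 (adjusted p = 0.0582, SE 0.24) at 16 weeks and 0.33 (adjusted p = 0.00789, SE 0.07) at 8 weeks. The prolyl hydroxylase gene P3h3 had 1.37 (adjusted p = 0.0555) and the lysyl hydroxylase gene Plod3 0.71 (adjusted p = 0.0615) at 16 weeks.

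Outside the cell, propeptides are cut off and lysyl oxidases crosslink the fibres. Of 10 tested genes of this list 4 rose at 16 weeks, and of 12 tested 5 rose at 8 weeks, with medians of 1.18 and 0.32. For this list and the receptors below, the shares of all tested genes that rose were 1.88% at 16 weeks and 4.30% at 8 weeks. Adamts2, the procollagen N-proteinase, averaged 21.9 ± 10.2 CPM in KO-16 and 6.83 ± 1.47 CPM in WT-16, with log2 fold changes of 1.68 (adjusted p = 0.0249, SE 0.32) and 0.54 (adjusted p = 0.00124, SE 0.08) at 16 and 8 weeks. The lysyl oxidase genes Loxl1 (1.68, adjusted p = 0.0359), Loxl2 (1.08, adjusted p = 0.0333) and Loxl3 (1.91, adjusted p = 0.0417) rose at 16 weeks. At 8 weeks Adamts2, Loxl1, Lox, Bmp1 and Pcolce rose. Of the collagen receptors 2 of 8 rose at 16 weeks, the integrin gene Itga1 (0.58, adjusted p = 0.0356) and the endocytic receptor gene Mrc2 (1.43, adjusted p = 0.0423), and 1 of 9 at 8 weeks, Mrc2. Ddr2, a tyrosine kinase receptor for fibrillar collagen, averaged 47.7 ± 6.27 CPM in KO-16 and 48.0 ± 3.19 CPM in WT-16.

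Marker lists of the cells of the heart are given as measured beside the collagen genes. Of all genes tested, 1.88% rose and 0.945% fell at 16 weeks, and 4.30% rose and 3.91% fell at 8 weeks. Of 7 tested markers of activated fibroblasts, 6 rose at 16 weeks (Postn, Tnc, Meox1, Comp, Cilp and Thbs4) and 5 at 8 weeks, and the summed level of the 8 genes of that list was 74.5 to 996 CPM in KO-16 and 44.0 to 72.8 CPM in WT-16, and 83.0 to 166 CPM in KO-8 and 47.3 to 66.9 CPM in WT-8. Of 9 tested general fibroblast markers 2 rose at 16 weeks, Pi16 and Mfap5, and 4 of 10 at 8 weeks. The median log2 fold change of this list was 0.52 at 16 weeks and 0.27 at 8 weeks. Scara5 (-0.80 at 16 weeks), Clec3b (-0.42) and Gsn (-0.005) were negative at both times and not called, and the other tested markers were positive. The general fibroblast markers summed to 845 to 1392 CPM in KO-16 and 648 to 873 CPM in WT-16, and 991 to 1523 CPM in KO-8 and 1035 to 1107 CPM in WT-8. Pdgfra, a growth factor receptor of cardiac fibroblasts, averaged 53.1 ± 10.8 CPM in KO-16 and 49.99 ± 3.48 CPM in WT-16. None of 10 macrophage markers passed at either time. Of 10 endothelial markers, 1 rose at 16 weeks and 3 at 8 weeks, with a summed level of 685 to 979 CPM in KO-16 and 617 to 692 CPM in WT-16. Of 9 smooth muscle and pericyte markers, 1 rose at 16 weeks, and 4 rose and 1 fell at 8 weeks. The part of a change in cell numbers in the collagen differences was not tested. Cardiomyocyte markers summed to 25390 to 44597 CPM in KO-16 and 41676 to 49192 CPM in WT-16. None of the 7 passed at 16 weeks, while Ryr2 fell at 8 weeks. No marker passed at 16 weeks among those of erythroid, Schwann, epicardial, atrial, skeletal muscle, cartilage and valve cells, and at 8 weeks Hbb-bt, Kcna1 and Wt1 fell. Atrial markers summed to 1.603 to 167.5 CPM in KO-16 and 1.011 to 220.1 CPM in WT-16. At 8 weeks these markers summed to 1.093 to 2.364 CPM in KO-8 and 0.7698 to 6.411 CPM in WT-8. Whether atrial tissue adds to the spread of the 16-week libraries was not tested. The lymphocyte markers were too low to be tested. Erythroid markers summed to 47.5 to 1129 CPM in KO-16 and 53.1 to 132 CPM in WT-16.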

How the data were processed

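Gene counts deposited by the authors were used, in read pairs per gene. Per the file headers, featureCounts 1.6.3 had counted pairs on the reverse strand, by largest overlap, against the Ensembl 96 annotation of GRCm38. Per the labels' protocols, ventricular total RNA was depleted of rRNA with Ribo-Zero Gold and made into stranded libraries. Further tools in the submitters' processing notes, listed without a role, are STAR, RSEM, SAMtools, FastQC and cutadapt 1.16. The counting used strand, so that overlapping genes on opposite strands, such as Col4a1 and Col4a2, were kept apart, and the largest-overlap option assigned a read pair to 1 gene only.

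The 2 count files of each 16-week sample were summed. Each time was fitted on its own with edgeR 4.0.16 (TMM, filterByExpr, quasi-likelihood test) in R 4.3.3, because the common coefficient of variation was 0.228 at 16 weeks and 0.0930 at 8 weeks, and the change between times was fitted on all 19 libraries. P-values were adjusted by the Benjamini-Hochberg method over all genes tested, with a threshold of 0.05. Each SE was obtained as the size of the log2 fold change divided by the root of the F statistic. CPM use TMM factors over all libraries, and CPM per kilobase the gene lengths in the files. Alternatives were RLE factors, no filter, at least 1 CPM in 4 libraries, DESeq2 1.42.0, limma-voom 3.58.1, also with quality weights or a weight per group, rRNA genes left out, libraries with Y-linked transcripts left out, 1 fit of all libraries, the earlier or later 16-week file alone, the 18S share as a covariate, and each library left out. The 18S share entered the model as its log2. The fits were also run on simulated counts in which a gene had the same spread in all libraries of a fit. That setting lacks the unequal spread of the times and libraries here, so no result is drawn from it.

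The collagen genes, their types, the pathway and marker lists and the tests were chosen with earlier results of these data known. Collagen genes called in a time fit were given in full, at most 12 by smallest adjusted p at 16 weeks, then the gene of each type with the highest level per kilobase, and the rest by means or counts. Col6a6, Col8a2, Col22a1, Col11a1, Col9a2 and Ddr2 were described after their values were seen. So were Pdgfra, the unpassed genes of the folding list, the cartilage and valve markers and the atrial sums. Replicate numbers follow the order of the samples. Coding sequences came from GENCODE M21 and promoter windows from RefSeq (GRCm38.p6). Figures used Python 3.11.15 with pandas 2.3.3 and matplotlib 3.10.9.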

Additional observations from a re-analysis of the deposited data

Results flagged for a closer look

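In 6 of 128 groups of 4 or 5 libraries, 1 library lay far from the others by Dixon's criterion, which chance alone flags in about 1 of 20 groups. Col14a1 was at 49.6 CPM in replicate 3 of KO-8, against 30.0 to 31.3 CPM in the other KO-8 libraries. Without that library its log2 fold change at 8 weeks was 0.44, the lowest of the fits without 1 library, and it was still called. The same library had 54.4 CPM of Col8a1, against 32.6 to 35.7 CPM in the other KO-8 libraries. At 16 weeks, replicate 5 of WT-16 had 8.73 CPM of Col14a1, against 26.5 to 33.4 CPM in the other WT-16 libraries. Col1a1 was at 21.5 CPM in replicate 2 of WT-16, against 14.02 to 15.6 CPM in the others. Col25a1 had 0.280 CPM in replicate 4 of WT-8, against 0.828 to 1.0045 CPM in the others. The summed collagen level was 1169 CPM in replicate 1 of WT-8, against 1313 to 1367 CPM in the other WT-8 libraries.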

How the results depend on the processing

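No collagen gene reversed its direction under any alternative in which it was called. At 16 weeks, where 15 collagen genes were called, the count was 23 with no filter on low counts, 8 with limma-voom, 0 without the libraries with Y-linked transcripts, 2 with the 18S share in the model, and 1 to 18 without 1 library; RLE factors, the CPM filter, DESeq2, quality weights, rRNA genes left out, the joint fit and either 16-week file alone gave 13 to 22, all higher but for 1 lower among the 19 with quality weights. Over all genes, 356 calls became 1034 with no filter, 332 with limma-voom, 10 without the libraries with Y-linked transcripts, 35 with the 18S covariate, 29 to 1856 without 1 library, 1166 with DESeq2, 2514 with quality weights, 3181 in the joint fit, and 302 to 367 under the rest. The median log2 fold change of the collagen genes was 0.87 without the Y-linked libraries and 0.95 with the 18S covariate, against 1.07. At 8 weeks the 17 calls became 1 in the joint fit of all libraries (14 at an unadjusted p under 0.05), and were 15 to 17 without 1 library, and 16 or 17 under the other alternatives. Over all genes the joint fit made 31 calls at 8 weeks, against 1245 in the main fit. There were 872 to 1163 calls over all genes without 1 library, and 1168 to 1689 under the other alternatives. For the change between times, 0 calls became 3 with no filter, 1 with DESeq2, 9 with quality weights and 0 to 14 without 1 library (14 without replicate 1 of KO-16, 2 without replicate 5), and stayed 0 under the rest; over all genes, 0 became 43 with no filter, 30 with DESeq2, 527 with quality weights, and 613 and 114 without replicates 1 and 5. The cause was not tested, except that the joint fit takes its spread from both times. With rRNA and mitochondrial genes left out of the total, the collagen share was 0.392% in KO-16, 0.128% in WT-16, 0.365% in KO-8 and 0.236% in WT-8; without 1 library the share of all counts ranged over 0.172% to 0.252%, 0.0390% to 0.0572%, 0.273% to 0.289% and 0.174% to 0.182% in these groups. No paired analysis was possible because the labels give no replicate numbers. At the depth of the 16-week libraries 12 of the 37 collagen genes did not pass the filter, and WT-16 libraries had as few as 2476 collagen read pairs. The read pairs were counted without molecular identifiers.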
